A study of Mus musculus with 6 samples.

Results

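The Cd83-high non-cycling cells described here were 687 of the 21568 retained cell barcodes (and of 22939 barcodes in all) in 6 libraries of single cell RNA-seq from germinal center (GC) B-cells of mice. The members were chosen from their own transcripts. A member had at least 500 genes detected, under 10% mitochondrial unique molecular identifiers (UMIs, each counting 1 captured transcript molecule), at least 3 UMIs summed over the B-cell genes Cd79a, Cd79b and Ms4a1, at least 2 Cd83 UMIs, no Myc UMI, fewer than 2 Ly6d UMIs and under 8% immunoglobulin UMIs. It also had at most 1 of 8 mitosis genes and at most 2 of 8 DNA replication genes detected. What these 22 genes and limits fixed is given below as a description and is not tested.

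All mice carried the Cγ1-Cre allele, a Cre recombinase inserted at the Ighg1 locus and active in B-cells that enter the GC reaction. Of the 6 libraries, 3 were labelled as wild-type controls with Cre (Smc3 wt/wt) and 3 as Cre with Smc3 +/- (Smc3 wt/-). Smc3 is an ATPase of the cohesin ring, which holds sister chromatids together and forms chromatin loops. The cells were splenic cells sorted 8 days after immunization with sheep red blood cells. Cells were sorted from 6 Smc3 wt/wt and 3 Smc3 wt/- mice, further Smc3 wt/wt libraries are not analysed here, and the labels do not tie a mouse to a library, so p-values measure the spread between libraries. The age of the mice was not given in the sources used here. Members per library numbered 34, 218 and 142 in Smc3 wt/wt 1 to 3 and 72, 11 and 210 in Smc3 wt/- 1 to 3.

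GC B-cells divide and mutate their immunoglobulin genes in the dark zone and then move as centrocytes to the light zone, where they take up antigen, present its peptides on MHC class II and compete for help from T follicular helper cells. Help delivered through the receptor CD40 activates NF-kB, a family of transcription factors (Rel, Rela, Relb, Nfkb1, Nfkb2) held back by the inhibitors Nfkbia, Nfkbib and Nfkbie. Selected cells then switch on Myc for a short time before they divide again. CD83, a surface protein that stabilizes MHC class II and CD86, is a standard marker of light zone cells.

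Library totals ranged from 5223325 to 35354257 UMIs, and the members held 25031 to 700569 UMIs per library with a median of 2270 to 3572 UMIs per cell. The library Smc3 wt/- 2 stood apart: immunoglobulin transcripts made up 60.5% of its UMIs against 2.62% to 4.44% in the others, and 63.2% of its B-cells were over the immunoglobulin limit. It held 42 G2/M cells against 349 to 1955 in the others, and whether it was sorted like them was not tested, so the genotype comparisons are given with and without it. By Xist and Y-linked transcripts, Smc3 wt/wt 1, Smc3 wt/wt 2 and Smc3 wt/- 2 were male and the others female. Over the 15 pairs of libraries 280 barcode sequences occurred in both, of which 17 involved a member in 1 library and 0 a member in both.

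The markers of the label were present. Il4i1, an L-amino acid oxidase of activated B-cells, was detected in 45.4% of members. Because detection depends on depth, every cell was also thinned to 2000 UMIs, which left 626 of 687 members. At this depth Il4i1 was detected in 37.1% of members, 4.86% of 6939 B-cells in G2/M (at least 4 of the 8 mitosis genes detected) and 0 of 189 T-cells, where 3 of 189 is the limit that a count of 0 allows for T-cells with a UMI at this depth. Unthinned, the T-cell share was 0.379%, with a median depth of 1674.5 UMIs in T-cells and 3074 in members. The costimulatory ligand Cd86 was detected in 34.7% of thinned members (46.7% unthinned), 11.0% of G2/M cells and 1.59% of T-cells (2.84% unthinned). Bcl2a1b, an anti-apoptotic relative of Bcl2, was detected in 33.4% of thinned members but also in 24.3% of T-cells, so that its detection did not set B-cells apart. Among GC genes, the confinement receptor S1pr2 was detected in 28.1% of thinned members (38.0% unthinned) against 1.06% of T-cells (3.79% unthinned). The dark zone receptor Cxcr4, which T-cells also express, was detected in 3.35% of thinned members (4.66% unthinned) and 4.97% of thinned G2/M cells.

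Marker lists of other cells were summed over the members. Of 10 T-cell markers, Cd4 and Il7r were at 0 UMIs and the list summed to 175 to 323 CPM (UMIs scaled to the same total in each library and class) in Smc3 wt/wt against 79.9 to 447 CPM in Smc3 wt/-, most of it Lck with 202 CPM over all members. Of 10 myeloid markers, Csf1r and Itgam were at 0 and the list summed to 21.6 to 38.8 CPM in Smc3 wt/wt against 30.0 to 240 CPM in Smc3 wt/-, the highest value being that of Smc3 wt/- 2. The 8 red cell markers, with Alas2 and Car1 among those at 0, summed to 129 to 350 CPM in Smc3 wt/wt against 173 to 400 CPM in Smc3 wt/-. The plasma cell regulator Prdm1 had 1.83 CPM and the plasma cell receptor gene Tnfrsf17 no UMI. The 10-gene plasma cell list summed to 4330 to 5922 CPM in Smc3 wt/wt against 6169 to 7591 CPM in Smc3 wt/-, sums that were not tested. This list holds Jchain and Ighg1, which counted towards the immunoglobulin limit. Pooled, it summed to 5892 CPM in members and 6060 CPM in G2/M cells. The part of these transcripts in the results below was not tested. The naive B-cell list summed to 1137 CPM in members and 312 CPM in G2/M cells, with Fcer2a (CD23) at 217 CPM in members and 25.8 CPM in G2/M cells and Cd38 at 70.8 and 12.1 CPM. The heavy chain with most UMIs was Ighm in 424 members (61.7%), Ighg1 in 104 (15.1%), Ighg3 in 84 (12.2%) and Ighg2b in 44, whereas Ighd led in 2.

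Members were compared with 3 neighbouring classes, summing UMIs per library and scaling them by the class total (CPM). These were 52 cells that met the same rule except that they held a Myc UMI (Myc-positive), 7012 G2/M cells, and non-cycling cells with Cd83 at 1 UMI (537) or 0 UMIs (1150). As the classes were separated by transcripts, the contrasts are descriptive and carry no test. Il4i1 was at 814, 458 and 318 CPM in members of Smc3 wt/wt 1 to 3 and 666, 360 and 468 CPM in Smc3 wt/- 1 to 3. In Cd83-negative cells it was at 106, 38.5, 55.3, 64.6, 122 and 46.2 CPM in the same order, so that each member value lay above each Cd83-negative value. In G2/M cells it ranged from 26.2 to 64.0 CPM. In Myc-positive cells, which Smc3 wt/- 2 lacked, it was higher than in members in 4 of 5 libraries, with 1113 CPM pooled against 459 CPM.

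**Figure D1:**
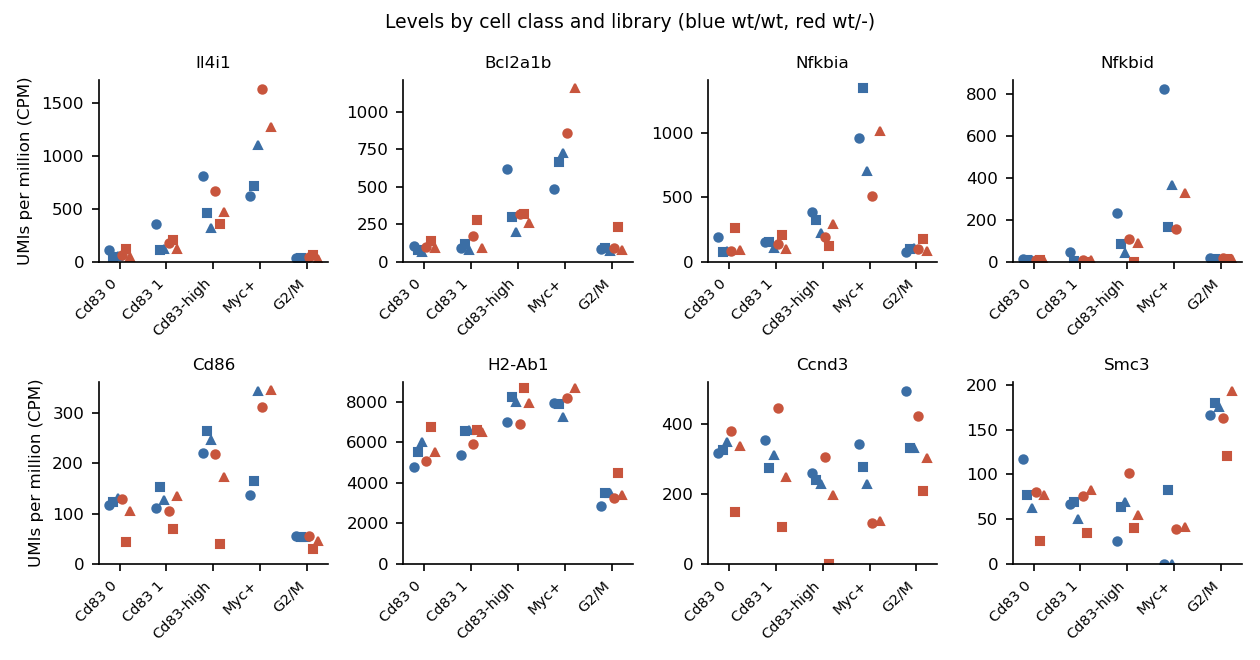
CPM of 8 genes (y axis, from 0) per library in Cd83-negative (Cd83 0), Cd83 1, Cd83-high, Myc-positive and G2/M cells. Blue points are Smc3 wt/wt and red points Smc3 wt/- libraries (circle, square and triangle for replicates 1, 2 and 3), and Smc3 wt/- 2 has no Myc-positive point. Il4i1 in Cd83-high cells lies between 318 and 814 CPM, above the Cd83-negative cells in every library, and Smc3 is highest in G2/M cells.

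Of the 10 light zone markers listed (Cd83, Il4i1, Rgs13, Marcksl1, Bcl2a1b, Cd86, Slamf1, Basp1, Cd40, Icam1), 5 were higher than in Cd83-negative cells in every library, Cd83 by construction. Over all 5260 genes at 20 CPM or more in either class, 3.94% were higher in every library and 421 genes were lower. Rgs13, a regulator of chemokine receptor signalling, was at 763 CPM over all members against 601 CPM in Cd83-negative and 854 CPM in Myc-positive cells. Bcl2a1b was at 276 CPM against 81.3 and 832 CPM. Marcksl1, an actin-binding protein, was at 492 CPM against 161 and 860 CPM, and it was higher than in Cd83-negative cells in every library but Smc3 wt/- 2, where 1 UMI was counted. Cd86 was at 222 CPM against 117 and 287 CPM. The members thus lay between the Cd83-negative and the Myc-positive cells in the pooled level of each of these genes and of Il4i1. Library by library, however, 2 of the 10 light zone markers (Cd83 and Icam1) were lower in members than in Myc-positive cells in each of 5 libraries and 0 higher, beside 2.63% lower and 4.87% higher of 5481 genes.

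Part of the NF-kB genes followed. Of 21 CD40 and NF-kB response genes at 20 CPM or more, 7 were higher in members than in Cd83-negative cells in every library and 0 lower (3.94% higher and 421 lower of all 5260 genes), Cd83 among the 7 by construction and Il4i1 and Bcl2a1b shared with the light zone list. Others lay as low as in Cd83-negative cells, such as Tnip1, a partner of the NF-kB inhibitor Tnfaip3, with 24.7 CPM in members and 28.0 CPM in Cd83-negative cells. Nfkbia, an inhibitor that NF-kB itself induces, was at 388, 328 and 220 CPM in Smc3 wt/wt members against 193, 120 and 295 CPM in Smc3 wt/- members. Its pooled level was 280 CPM against 93.3 CPM in Cd83-negative and 916 CPM in Myc-positive cells. In Smc3 wt/- 2 the order was turned, with 120 CPM from 3 UMIs in members and 260 CPM in Cd83-negative cells. Nfkbid, a nuclear IkB protein, was at 80.8, 6.18 and 320 CPM in the same 3 classes. Against Myc-positive cells 10 of 25 listed NF-kB genes were lower in members in every one of 5 libraries (Cd83, which the rule used, among them) and 0 were higher, beside 2.63% lower and 4.87% higher of 5481 genes. These included Rel at 142 CPM in members and 433 CPM in Myc-positive cells, and Icam1, an adhesion molecule, at 126 and 287 CPM. Immediate early genes, which respond within minutes to receptor signals, were lower in members than in Myc-positive cells in every library for 5 of 16 genes and higher for 0. Egr1 was at 20.6 CPM in members against 146 CPM, and Egr3 at 20.6 against 141 CPM.

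Ranked over all genes outside the rule with a mean of 50 CPM or more, Il4i1, Bcl2a1b and Cd72 had the highest lowest-library ratio of members over Cd83-negative cells. They were followed by Hmgcs1, an enzyme of cholesterol synthesis, with a mean of 97.6 CPM over the 6 libraries in members and 36.4 CPM in Cd83-negative cells, and by Bcl2a1d, Ehd1, Nfkb2 and Nfkbie. At the other end stood Rgcc, a cell cycle regulator, with 24.9 and 114 CPM, and Anxa2, a membrane-binding annexin, with 186 and 403 CPM. Against Myc-positive cells the genes furthest below were Kdm6b, an H3K27 demethylase, with 19.2 CPM in members and 127 CPM, Rel, Nfkbia and the ubiquitin ligase Siah2, with 148 and 514 CPM. Pim1, a kinase of cytokine signalling, was at 153 and 480 CPM. Higher in members than in Myc-positive cells in 5 of 5 libraries were, among others, Rgs2 with 229 and 92.0 CPM and the nucleotide hydrolase Samhd1 with 381 and 189 CPM.

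The regulatory sequence of the NF-kB genes was read for a short form of the NF-kB site, GGGNNTTCC, on both strands. The windows run from 250 bases before to 50 after each RefSeq transcription start (GRCm38.p6). Of all 32851 windows 5.82% held the word. Of the 29 genes in the list 23 had a window, and 9 of their 30 windows (30.0%) held it. The windows of Nfkb2 and Nfkbie, which were higher in members than in Cd83-negative cells in every library, and of Il4i1, the leading marker, are shown 5′ to 3′ with the matches in capitals. Of the 3 Nfkb2 windows the one that holds matches is shown. Nfkb2 is at chr19:46304487-46304786, Nfkbie at chr17:45555450-45555749 and Il4i1 at chr7:44836038-44836337, all on the plus strand. The first 10 capitals of Nfkb2 hold 2 matches that overlap on opposite strands, and the Il4i1 window holds no match. Of the genes higher than in Cd83-negative cells, the windows of Bcl2a1b and Bcl2a1d also hold no match, nor does that of Nfkbia, whereas that of Tnip1 holds 2. A match describes these letters and was not tested as a binding site.
Nfkb2: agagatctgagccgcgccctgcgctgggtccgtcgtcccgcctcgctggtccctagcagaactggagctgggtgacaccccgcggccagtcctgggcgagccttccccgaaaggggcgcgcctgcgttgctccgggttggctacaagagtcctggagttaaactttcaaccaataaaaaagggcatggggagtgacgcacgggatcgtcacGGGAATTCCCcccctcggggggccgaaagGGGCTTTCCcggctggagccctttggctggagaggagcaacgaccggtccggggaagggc
Nfkbie: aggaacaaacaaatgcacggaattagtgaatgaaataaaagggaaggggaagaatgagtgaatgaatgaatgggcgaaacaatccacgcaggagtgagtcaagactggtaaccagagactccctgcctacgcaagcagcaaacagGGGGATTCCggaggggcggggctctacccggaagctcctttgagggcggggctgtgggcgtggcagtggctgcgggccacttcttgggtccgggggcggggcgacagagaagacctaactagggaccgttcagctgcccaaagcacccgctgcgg
Il4i1: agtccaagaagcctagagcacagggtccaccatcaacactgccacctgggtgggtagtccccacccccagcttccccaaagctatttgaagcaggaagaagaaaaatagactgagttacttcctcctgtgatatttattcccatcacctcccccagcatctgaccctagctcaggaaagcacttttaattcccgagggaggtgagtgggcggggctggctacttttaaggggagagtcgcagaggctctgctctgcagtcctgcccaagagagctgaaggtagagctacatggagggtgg

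Antigen presentation genes were higher in members than in G2/M cells. Of 14 MHC class II genes at 20 CPM or more, 12 were higher in every library and 1 lower, against 13.5% higher and 26.3% lower of 5461 genes. The beta chain gene H2-Ab1 was at 6992, 8208 and 7996 CPM in Smc3 wt/wt members against 6878, 8669 and 7939 CPM in Smc3 wt/- members, with 2854 to 4502 CPM in G2/M cells. The invariant chain Cd74 was at 36589 CPM over all members, 13523 CPM in G2/M and 27220 CPM in Cd83-negative cells. Against the latter, 4 of 14 MHC class II genes were higher in every library (3.94% of all genes), and against Myc-positive cells 0 of 13 were higher or lower in all 5 libraries (4.87% and 2.63% of all genes). The part of cell size and depth in these ratios was not tested: G2/M cells had a median of 7649 UMIs and members 3074.

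Many genes of T-cell contact and of the B-cell receptor were also higher in members than in G2/M cells, and fewer were higher than in Cd83-negative cells. Of 18 T-cell contact genes 11 were higher in every library and 0 lower, beside 13.5% higher and 26.3% lower of all 5461 genes. The cytokine receptor Il21r was at 274 CPM in members and 91.7 CPM in G2/M cells, and the ligand Icosl at 38.8 and 6.26 CPM. Cd80 had no UMI in any member, where 3 counts of the 2189474 member UMIs are the limit that a count of 0 allows. Of 23 B-cell receptor genes 13 were higher in every library and 0 lower, led by the coreceptor Cd72, at 459 CPM in members, 117 CPM in G2/M cells and 171 CPM in Cd83-negative cells. Against Cd83-negative cells, which are also non-cycling, 5 of 18 T-cell contact genes were higher in members in every library and 1 lower. Of 23 B-cell receptor genes 3 were higher and 1 lower, beside 3.94% higher and 421 lower of all 5260 genes. Among the 10 genes with the highest lowest-library ratio over G2/M cells were, after Pxdc1, Il4i1 and Cd72, H2-Oa (a modulator of peptide loading), the proton channel Hvcn1, Cd38, Cd52 and Fcer2a. The 10 genes furthest below G2/M cells were cell cycle genes outside the rule such as Pclaf, Tpx2, Cdk1, Plk1 and Ccna2, as the rule left out dividing cells. Cdk1, the mitotic kinase, was at 0 to 11.4 CPM in members and 242 to 336 CPM in G2/M cells.

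Dark zone and growth genes lay lower. Of 9 dark zone genes 6 were lower in members than in G2/M cells in every library and 1 was higher, beside 26.3% lower and 13.5% higher of all genes. Of 22 Myc and growth genes 15 were lower than in G2/M cells in every library and 0 higher, with the nucleolar protein Ncl at 507 CPM in members and 928 CPM in G2/M cells. Against Cd83-negative cells, however, 9 of 20 growth genes were higher in members in every library and 0 lower (3.94% higher and 421 lower of all 5260 genes), although cells with a Myc UMI were left out. Of 13 cohesin genes 9 were lower than in G2/M cells in every library and 1 higher. Smc3 was at 63.5 CPM over all members and 180 CPM in G2/M cells.

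Cd83 content varied among the members, with 2 UMIs in 271 cells, 3 or 4 in 233 and 5 or more in 183, up to 17. Just inside the limit, cells with 2 Cd83 UMIs had 240 CPM of Il4i1, 152 CPM of Bcl2a1b and 159 CPM of Nfkbia. Just outside it, cells with 1 Cd83 UMI had 128, 109 and 122 CPM. At 5 or more Cd83 UMIs the levels were 773, 424 and 442 CPM. Neil1, a DNA glycosylase of base excision repair, had 200 CPM at 1 UMI, 145 CPM at 2, 150 CPM at 3 or 4 and 118 CPM at 5 or more, and was lower at 5 or more than at 2 in 4 of 5 libraries. The median depth was 2838, 2941 and 3293 UMIs at 1, 2 and 5 or more Cd83 UMIs. After thinning to 2000 UMIs, Il4i1 in these bins was at 116, 264 and 764 CPM.

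Members with 5 or more Cd83 UMIs were compared with members at 2 in each library but Smc3 wt/- 2, which had 1 and 9 such cells. The others had 15 and 8, 47 and 93, 40 and 51 (Smc3 wt/wt 1 to 3), 24 and 25, and 56 and 85 cells (Smc3 wt/- 1 and 3). Of 4951 genes at 20 CPM or more 4.89% were higher at 5 or more UMIs in 5 of 5 libraries and 4.58% lower. Of 9 light zone markers (without Cd83) 5 were higher in all 5, and of 22 NF-kB genes 10. Nfkbia was at 141 ± 34.2 CPM (SD, n = 5 libraries) in cells with 2 Cd83 UMIs and 422 ± 115 CPM at 5 or more. Nfkbid was at 33.3 ± 40.1 and 174 ± 47.7 CPM, and Nfkb2, the precursor of the NF-kB subunit p52, at 24.3 ± 15.1 and 99.1 ± 51.9 CPM. The survival gene Bcl2a1d was at 60.1 ± 21.7 and 203 ± 93.1 CPM.

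**Figure D2:**
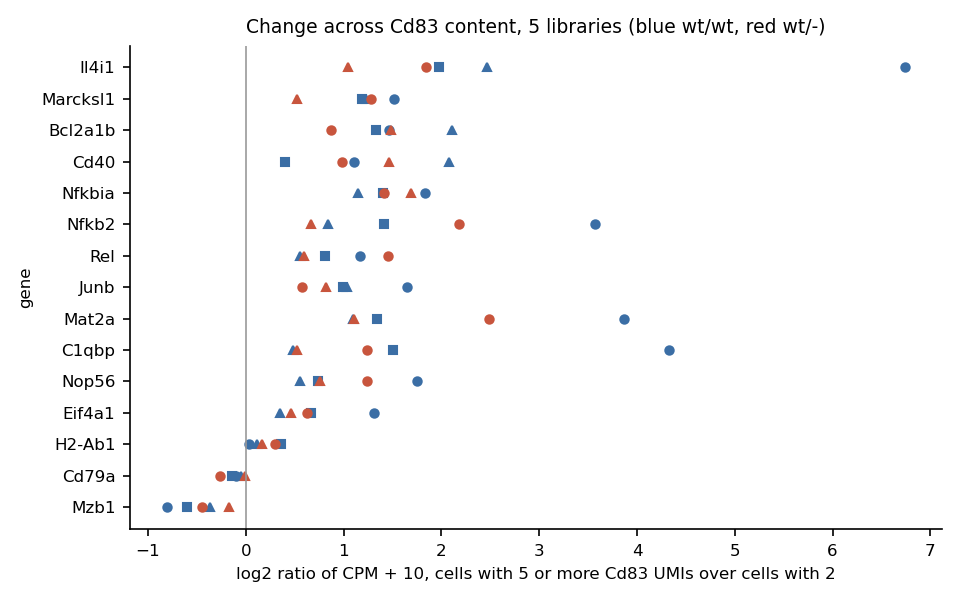
Log2 ratio of CPM + 10 between members with 5 or more and with 2 Cd83 UMIs (x axis) for 15 listed genes (y axis), 1 point per library in 5 libraries (blue Smc3 wt/wt, red Smc3 wt/-, symbols by replicate number). Genes from Il4i1 to H2-Ab1 lie right of 0 in 5 of 5 libraries and Cd79a (used by the rule) and Mzb1 left of 0. The farthest points are those of Smc3 wt/wt 1, which had 8 cells at 2 UMIs.

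Part of the Myc and growth list followed Cd83 content within the members. Of 21 such genes 12 were higher at 5 or more Cd83 UMIs in 5 of 5 libraries and 0 lower, in cells in which no Myc UMI was counted. Over all 4951 genes these shares were 4.89% and 4.58%. Mat2a, which makes the methyl donor S-adenosylmethionine, was at 40.1 ± 30.0 CPM in cells with 2 Cd83 UMIs and 146 ± 19.7 CPM at 5 or more. The nucleolar protein Nop56 was at 73.7 ± 15.9 and 160 ± 42.2 CPM, and the helicase Eif4a1 of translation initiation at 774 ± 186 and 1253 ± 308 CPM. Lower in 5 of 5 libraries were Mzb1, a chaperone of immunoglobulin assembly, with 1045 ± 144 and 760 ± 179 CPM and the receptor component Cd79a, which the rule used, with 2589 ± 266 and 2386 ± 134 CPM. Of 23 B-cell receptor genes 2 were lower and 2 higher in all 5 libraries. A cell with no Myc UMI at this depth may still hold Myc transcripts. Markers of other cells also moved with Cd83 content: Lck (1 of 2 T-cell markers at this level) and Hbb-bt (1 of 3 red cell markers) were higher in 5 of 5 libraries, and their part was not tested. Of the cycling markers, which the rule limited, 0 of 8 were higher or lower in all 5 libraries, beside 4.89% and 4.58% of all genes.

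The share of members was compared between genotypes, the question being whether cohesin dosage altered this stage. Of retained barcodes, members were 3.33%, 4.20% and 3.19% in Smc3 wt/wt against 2.95%, 0.299% and 4.38% in Smc3 wt/-. The exact 95% intervals, which cover counting error only, were 2.32% to 4.62%, 3.67% to 4.79% and 2.70% to 3.75% for the first 3 libraries and 2.31% to 3.70%, 0.149% to 0.534% and 3.82% to 4.9987% for the others. The means were 3.58% ± 0.548 (SD, n = 3) and 2.54% ± 2.07 (n = 3), a difference of -1.03 percentage points (two-sided exact permutation p = 0.5, where 0.1 is the smallest p of this design). Without Smc3 wt/- 2 the difference was 0.0886 points (exact permutation p = 0.9). Of B-lineage barcodes under the immunoglobulin limit, members were 3.84%, 4.36% and 3.31% in Smc3 wt/wt against 3.15%, 1.08% and 4.58% in Smc3 wt/-. Here the means were 3.83% ± 0.524 and 2.93% ± 1.76 (exact permutation p = 0.6, n = 3 and 3), and without Smc3 wt/- 2 the difference was 0.0302 points (exact permutation p = 0.9). Smc3 wt/- 2 had the lowest share and Smc3 wt/- 3 the highest by both denominators, so the genotypes overlapped.

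**Figure D3:**
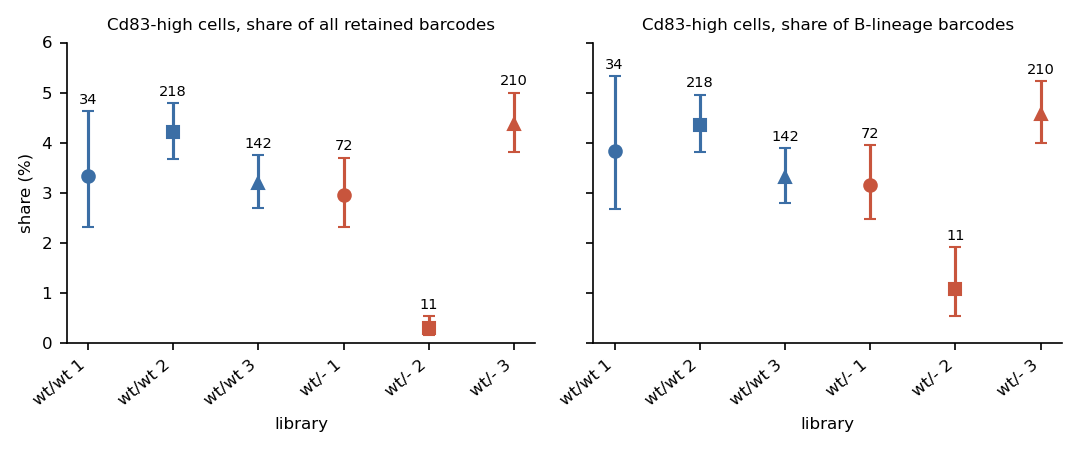
Share of Cd83-high cells (y axis, %, from 0) per library among retained barcodes (left) and B-lineage barcodes (right), with exact 95% binomial intervals as bars and the number of members above each. Blue is Smc3 wt/wt and red Smc3 wt/-; Smc3 wt/- 2, with 11 members, lies below the other 5 libraries, which range from 2.95% to 4.38% on the left.

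Expression in members was compared between genotypes on sums per library, scaled by TMM. Smc3 was at 25.4, 71.6 and 77.8 TMM-scaled CPM in Smc3 wt/wt against 101, 41.9 and 60.8 in Smc3 wt/-, from 2, 43 and 35 against 20, 1 and 38 UMIs. The groups overlapped, and the log2 fold change of Smc3 wt/- over wt/wt was 0.03 ± 0.31 (SE, edgeR adjusted p = 0.9998). The deletion targets an upstream exon while these libraries count 3′ ends. Whether transcripts of the deleted allele are still counted was not tested, and this level is no check of the genotype. Of the markers given for the members, Cd83 was used to choose them and is not compared. The other 4 overlapped between genotypes. Il4i1 was at 801, 520 and 360 TMM-scaled CPM in Smc3 wt/wt against 662, 377 and 525 in Smc3 wt/-, a log2 fold change of 0.06 with a 95% interval of -0.54 to 0.65. Rgs13 had a log2 fold change of -0.11, Marcksl1 -0.42 and Bcl2a1b -0.20, none of them past the test. Without Smc3 wt/- 2 the values were 0.05 for Smc3, 0.16 for Il4i1, 0.11 for Rgs13, -0.19 for Marcksl1 and -0.18 for Bcl2a1b, none past the test.

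No gene passed the test between genotypes: 0 of 4102 genes (0%) had an edgeR adjusted p under 0.05, with 110 at an unadjusted p under 0.05 and a lowest adjusted p of 0.250. DESeq2 also called 0 genes, with 12 at an unadjusted p under 0.05. Without Smc3 wt/- 2, edgeR called 0 of 5456 genes (182 at an unadjusted p under 0.05). Other settings did call genes: 11 without Smc3 wt/wt 1, 5 without Smc3 wt/- 1, 3 without Smc3 wt/wt 3, 8 with no low-count filter, 2 with Cd83 of at least 3 UMIs and 1 (Plac8) with the replicate block. Eif2s3y and Ddx3y, which mark sex, were among the 11, the 5, the 3 and the 8. The median log2 fold change over all genes tested was -0.01. Groups of 3 libraries did not overlap for 143 genes higher in Smc3 wt/- (3.49%) and 181 lower (4.41%). Without Smc3 wt/- 2 these were 510 (9.35%) and 407 (7.46%) of 5456 genes.

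In the gene lists, 0 genes passed the test. Over all genes tested, 2143 of 4102 were below 0 (2762 of 5456 without Smc3 wt/- 2), and 4.41% were lower and 3.49% higher without overlap between the genotypes. The 9 light zone markers other than Cd83, which the rule used, had a median log2 fold change of -0.20, with 8 below 0 (-0.18 and 6 without Smc3 wt/- 2), and 0 of them without overlap. Cd86 was at 216, 300 and 278 TMM-scaled CPM in Smc3 wt/wt against 217, 41.9 and 194 in Smc3 wt/-, so that the groups overlapped (log2 fold change -0.53, 95% interval -1.05 to -0.01, edgeR adjusted p = 0.9998, and -0.45 without Smc3 wt/- 2). The 20 NF-kB genes tested other than Cd83 had a median of -0.16, with 13 below 0 and Relb the 1 gene without overlap (-0.18 and 14 of 23 without Smc3 wt/- 2). Of 16 T-cell contact genes 13 were below 0 (median -0.17; 14 of 17 and -0.15 without Smc3 wt/- 2), and Ly9, Tnfrsf13b (TACI) and Tnfrsf13c (the BAFF receptor) were lower without overlap. Tnfrsf13c was at 1055, 928 and 924 TMM-scaled CPM in Smc3 wt/wt against 924, 503 and 864 in Smc3 wt/-. Its lowest Smc3 wt/wt and highest Smc3 wt/- values were equal after rounding, so its separation was minimal. Of 12 MHC class II genes 8 were below 0 (median -0.05; 10 of 13 and -0.09 without Smc3 wt/- 2). Of 11 cohesin genes 8 were below 0 (median -0.31; 8 of 12 and -0.25 without Smc3 wt/- 2), and Rad21, Stag1, Mau2, Wapl and Pds5a were lower in every Smc3 wt/- library. Mau2, a subunit of the cohesin loader, was at 50.8, 66.6 and 53.3 TMM-scaled CPM in Smc3 wt/wt against 15.2, 41.9 and 36.8 in Smc3 wt/-, with 1 UMI in Smc3 wt/- 2 (log2 fold change -0.92, SE 0.36, edgeR adjusted p = 0.9998, and -0.94 without that library). Of 20 Myc and growth genes 12 were above 0 (median 0.02; 12 of 21 and 0.05 without Smc3 wt/- 2), with Fbl and Odc1 (ornithine decarboxylase) higher without overlap. Of 8 memory precursor genes 6 were above 0 (median 0.23; 5 and 0.16 without Smc3 wt/- 2). Immediate early genes had a median of -0.15, with 10 of 12 below 0 (-0.24 and 12 of 15 without Smc3 wt/- 2), and Fos and Btg2 were lower without overlap.

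The genes with the lowest unadjusted p among those without overlap are given as values that did not pass. Tmem121 was at 25.4, 18.3 and 6.67 TMM-scaled CPM in Smc3 wt/wt against 96.0, 83.8 and 52.8 in Smc3 wt/-, from 2, 11 and 3 against 19, 2 and 33 UMIs (log2 fold change 2.20 ± 0.45, edgeR adjusted p = 0.250). Every Smc3 wt/- library lay above every Smc3 wt/wt library, but Smc3 wt/- 2 with only 2 UMIs. Ifi27l2a, an interferon-inducible gene, was at 229, 238 and 167 against 470, 377 and 389 TMM-scaled CPM (log2 fold change 1.01 ± 0.24, edgeR adjusted p = 0.478). Plac8 was at 0, 25.0 and 4.44 against 40.4, 251 and 54.4 TMM-scaled CPM, and 1 cell held all 6 UMIs of Smc3 wt/- 2 and another 20 of the 34 UMIs of Smc3 wt/- 3. Aatf and Map1s, at 1 UMI each in Smc3 wt/- 2, had log2 fold changes of 1.15 and 1.36. Without Smc3 wt/- 2 the log2 fold changes of Tmem121, Ifi27l2a, Plac8, Aatf and Map1s were 2.20, 1.03, 1.75, 1.16 and 1.37, none past the test.

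Ighg1, the constant region gene of IgG1, was lower, at 407, 570 and 584 against 192, 126 and 346 TMM-scaled CPM (log2 fold change -1.02 ± 0.28, edgeR adjusted p = 0.795). It led the heavy chain in 14.7%, 16.1% and 20.4% of Smc3 wt/wt members against 9.72% and 13.3% of the members of Smc3 wt/- 1 and 3, and in 0 of the 11 of Smc3 wt/- 2. The Cre of these mice sits in Ighg1, and the number of copies per mouse was not given in the sources used here, so its part was not tested. Tmem121 (chr12:113185930-113189523, GRCm38), Ighg1 (chr12:113325240-113330523) and Ifi27l2a (chr12:103442167-103443680) are on 1 chromosome. Rgs2, a regulator of G protein signalling, was at 292, 305 and 276 against 172, 83.8 and 181 TMM-scaled CPM (log2 fold change -0.77 ± 0.23). Idi1 of isoprenoid synthesis, Miip and Tacc1 had log2 fold changes of -1.01, -1.48 and -0.79, and neither Idi1 nor Miip had a UMI in Smc3 wt/- 2. Without that library the log2 fold changes of Ighg1, Rgs2, Idi1, Miip and Tacc1 were -0.93, -0.71, -0.96, -1.44 and -0.80, none past the test.

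**Figure D4:**
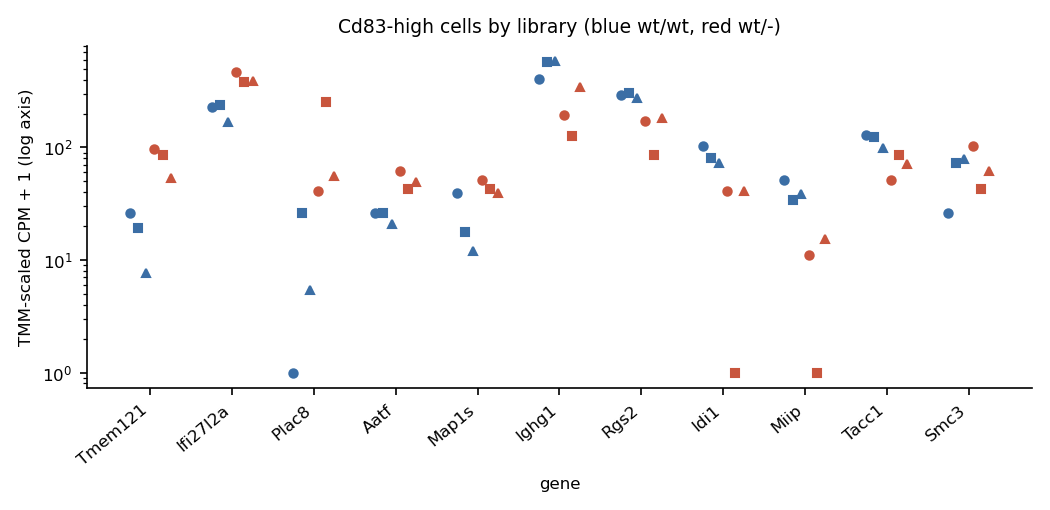
TMM-scaled CPM + 1 on a log axis (y) of the 10 genes given as values that did not pass, and of Smc3, in Cd83-high cells, 1 point per library (blue Smc3 wt/wt, red Smc3 wt/-, symbols by replicate number). The genotypes do not overlap for the first 10 genes, by which they were chosen, and overlap for Smc3.

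Whether a genotype difference in members differed from that in neighbouring cells was tested as an interaction with the library as a block. Against Myc-positive cells 0 of 1417 genes (0%) passed (41 at an unadjusted p under 0.05 by edgeR and 9 by DESeq2, which also called 0), in 5 libraries and with 7 to 15 Myc-positive cells per library. Against G2/M cells 3 of 6572 genes (0.0456%) passed: Cst3, Fscn1 and Iglc2. The genotype difference of Cst3, a secreted protease inhibitor, was lower in members by a log2 value of -1.43 (edgeR adjusted p = 6.39e-10) and that of Fscn1, an actin-bundling protein, by -3.12 (edgeR adjusted p = 4.98e-05). In members, Cst3 was at 9, 606 and 106 UMIs in Smc3 wt/wt against 29, 4 and 152 in Smc3 wt/-, and Smc3 wt/wt 2 alone was high. There 1 barcode held 496 of the 606 Cst3 UMIs, 49 of 54 Fscn1 UMIs and 56 Ccl5 UMIs, while the next member held 7 Cst3 UMIs. This barcode had 8068 UMIs, 446 of Cd74, 11 of Ccr7, 4 of Cd83, 4, 6 and 2 of Cd79a, Cd79b and Ms4a1, and 0 of Bcl6, S1pr2 and Mef2b. It met the rule and was not called a doublet, but whether it is a single B-cell was not tested. Without it neither Cst3 nor Fscn1 passed, and 1 gene was called.

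**Figure D5:**
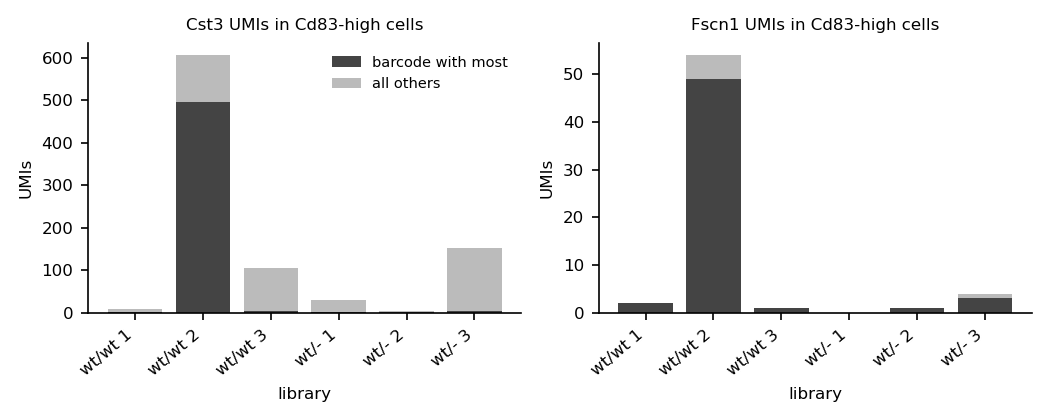
UMIs of Cst3 (left) and Fscn1 (right) in Cd83-high cells per library (bars from 0), with the barcode holding most UMIs in dark grey and all other members in light grey. In Smc3 wt/wt 2, 1 barcode holds 496 of 606 Cst3 UMIs and 49 of 54 Fscn1 UMIs.

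The remaining gene, Iglc2, a lambda light chain constant gene, had a genotype difference higher in members than in G2/M cells by a log2 value of 0.94 (edgeR adjusted p = 4.69e-05). In members it was at 775, 824 and 829 CPM in Smc3 wt/wt against 1088, 1438 and 570 CPM in Smc3 wt/-. In G2/M cells it was at 350, 336 and 344 CPM and 191, 448 and 120 CPM. In Smc3 wt/- 1, 1 member held 134 of 214 Iglc2 UMIs. The call was lost without Smc3 wt/wt 2, Smc3 wt/wt 3, Smc3 wt/- 1 or Smc3 wt/- 3, and with DESeq2, which called 0 genes (43 at an unadjusted p under 0.05). Reads of lambda constant genes can be shared with near-identical copies, so its level is uncertain.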

How the data were processed

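The deposited values were whole-number UMI counts per gene and barcode, which the authors made from 10x Genomics 3′ libraries with Cell Ranger 3.0.2 (mm10, per the matrix headers and the submitters' notes). Barcodes were retained and the Cd83-high cells taken by the rule given with the results. The members and the gene lists were chosen with earlier results of these data known. Scrublet (scanpy 1.11.5) called 721 doublets at 0.8% per 1000 barcodes, 1 of them a member, and they were kept except in 1 alternative. UMI sums per library were tested with edgeR 4.0.16 (TMM, filterByExpr, quasi-likelihood test, R 4.3.3) with Benjamini-Hochberg adjustment at 0.05 over all genes tested, 3 libraries against 3. Shares were compared by exact permutation tests with exact (Clopper-Pearson) 95% intervals. DESeq2 1.42.0 was an alternative. Interaction fits held each library as a block, and the fit with Myc-positive cells left out Smc3 wt/- 2, which had none. The scripts were tested on simulated data. Of 31053 features, coordinates came from GENCODE M21 and promoters from RefSeq (GRCm38.p6); no Cd83 promoter was used here. Named genes were the markers, the listed genes (whole lists by count), up to 5 per direction past the threshold without overlap or otherwise the 5 with the lowest unadjusted p at 20 CPM or more without overlap, and the 10 per direction with the most extreme lowest library ratio to each neighbouring class (CPM + 10, mean of at least 50 CPM). The Cst3-rich barcode, Fscn1, Ccl5 and Iglc2 were described after their values were seen.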

Additional observations from a re-analysis of the deposited data

Results flagged for a closer look

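In 3 genes the genotype difference in Cd83-high cells differed from that in G2/M cells by the interaction test. The log2 difference of the differences was -1.43 for Cst3, -3.12 for Fscn1 and 0.94 for Iglc2. For Cst3 and Fscn1, 1 barcode of Smc3 wt/wt 2 held 496 of 606 and 49 of 54 UMIs, and neither gene passed without it. Iglc2 passed without this barcode with a log2 value of 0.94 (edgeR adjusted p = 1.49e-05), while 1 member of Smc3 wt/- 1 held 134 of its 214 Iglc2 UMIs. The part of single clones in the light chain values was not tested.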

How the results depend on the processing

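Smc3 wt/- 2 had 11 members and Myc-positive cells numbered 52. The share difference between genotypes ranged from -1.95 to 0.0886 points of retained barcodes and from -1.72 to 0.0302 points of B-lineage barcodes when 1 library was left out, and was above 0 only without Smc3 wt/- 2. Other settings gave -1.45 to -0.806 and -1.11 to -0.751 points. As a replicate block, the differences of -1.03 and -0.900 points had an exact permutation p of 0.75 each. Same-numbered libraries correlated at 0.174, 0.0565 and 0.0810 over genes, each highest with its own number, and were not taken as paired. With the replicate block 1 gene was called (Plac8), and 8 with this block and the pair numbered 2 left out, an alternative chosen after seeing the data. No low-count filter gave 8 genes (Cst3, Plac8, Fscn1, Ccl5, Tmem121, Igha, Eif2s3y, Ddx3y) and Cd83 of at least 3 UMIs 2 (Cst3, Ifi27l2a). Leaving out 1 library gave 0 to 11 genes: 11 without Smc3 wt/wt 1, 5 without Smc3 wt/- 1 and 3 without Smc3 wt/wt 3. The 3 were Xist, Eif2s3y and Ddx3y, which mark sex. The 5 were Plac8, Fscn1, Igha, Eif2s3y and Ddx3y, and the 11 were these with Cst3, Ccnd2, Ifi27, Ifi27l2a, Tmem121 and Ighg1. In Smc3 wt/wt 2, 1 barcode held most Cst3 and Fscn1 UMIs. The cause was not tested. The other 9 settings planned, among them sex as a covariate, DESeq2 and thinning, and 2 added after seeing the data gave 0 genes. The 10 genes named without passing were chosen for not overlapping, which fixes their sign when a library is left out. Plac8 was called under 5 settings, Tmem121 and Ifi27l2a under 3 each and Ighg1 under 2. With Cd83 of at least 1 UMI, Plac8 was at 0.055, Miip at -0.54 and Tacc1 at -0.27, and Plac8 was at 3.43 with the replicate block. Against Myc-positive cells leaving out 1 library gave 0 to 1 gene (Ighg1 without Smc3 wt/wt 1). Against G2/M cells it gave 0 to 3, with 0 without Smc3 wt/wt 2, DESeq2 gave 0, and leaving out the Cst3-rich barcode, added after seeing the data, gave 1.

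Fold changes near 0 turned sign. Smc3 was at -0.11 with sex as a covariate, -0.29 with Cd83 of at least 3 UMIs and -0.23 to 0.41 with 1 library left out. Il4i1 was at -0.0098 with DESeq2, -0.10 with Cd83 of at least 3 UMIs, -0.11 after thinning and -0.22 to 0.31 with 1 library left out. Rgs13 was at 0.10 with DESeq2 and 0.022 with the replicate block, both without Smc3 wt/- 2, and -0.52 to 0.12 with 1 library left out. Bcl2a1b was at 0.19 with sex as a covariate and -0.53 to 0.085 with 1 library left out. Cd83, by which the members were chosen, was at -0.35 to 0.068 with 1 library left out. As the rule set a lower limit on its UMIs, these values are a description and no genotype comparison of Cd83.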
